A study of Mus musculus with 12 samples.

Results

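The genes described here encode the proteins of the cytosolic ribosome, together with their close copies. They were chosen by name from the deposited count table: symbols of the form Rps or Rpl followed by a number, Rplp0 to Rplp2 and Rpsa, without the Rps6k kinases and without names marked as pseudogenes, and with at least 10 counts in at least 3 of the 12 libraries. Of 35434 genes in the table, 90 symbols matched and 88 met the count rule, and all 88 were among the 15269 genes tested. Those that fell short were Rpl10l, a testis paralog of Rpl10 that had 0 counts in all libraries, and Rps23rg1, a retrogene of Rps23 with 22 counts in all. The 88 genes comprise 31 of the small (40S) subunit, 43 of the large (60S) subunit, 3 of the P stalk, 10 paralogs or retrogene copies, and Rps19bp1, which matches the name pattern but encodes a protein that binds RPS19 and is not part of the ribosome.

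The libraries are bulk RNA-seq of tumours grown from 4T1 cells, a triple-negative breast cancer line of the mouse, under the skin of female BALB/c mice of 6 to 8 weeks, with 1 mouse per library and 3 mice per group. The groups are MC (ambient altitude of about 1500 m, vehicle), MI (ambient altitude, IOX2), HC (a hypobaric chamber simulating 3500 m, vehicle) and HI (3500 m, IOX2). IOX2 inhibits PHD2, the oxygen sensor that marks hypoxia-inducible factors for destruction. It was injected into the peritoneum at 10 mg/kg each day for 10 days from day 9 after inoculation, all mice had 3 days of acclimatization, and tumours were taken on study day 22. The chamber held HC and HI mice alone, so altitude and chamber housing cannot be told apart. The 4T1 cells sit in host tissue: all 15 epithelial markers examined (Krt8, Krt18, Epcam and others) passed the expression filter, with a summed level of 4735 to 6330 CPM (edgeR's counts scaled to library size with TMM factors) per library.

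Each ribosome holds 1 copy of nearly every ribosomal protein, the P stalk proteins P1 and P2 being the known exception, and unassembled proteins are degraded, so cells make them in step. In mammals most of these mRNAs begin with a C followed by a run of pyrimidines, the terminal oligopyrimidine (TOP) motif, through which mTOR and the RNA-binding protein LARP1 set how strongly they are translated. Hypoxia is known to restrain mTOR, and the mRNA levels measured here do not read translation.

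The first bases of a TOP mRNA carry that motif, so the starts of the genes on which the results turn are shown. Each line gives 25 bases before and 25 bases from the RefSeq start (build GRCm38.p6, an older build than that of the files, matched by symbol), on the gene's strand, with capitals marking the run CTTTC, the run CTTTT, the run CTTCC, the run CCTTT and the run CTCTT. Rplp2 (chr7:141447626-141447675, plus strand), Rps6 (chr4:86857343-86857392, minus strand) and Rpl38 (chr11:114668555-114668604, plus strand) have such a run at the start. Rpl35a (chr16:33056457-33056506, plus strand, the second of its 3 annotated starts; the other starts have no such run within 15 bases) and Rpl26 (chr11:68901541-68901590, plus strand, with no run within 15 bases of the start, where the last capitals open a run that continues past the stretch) had the smallest p for IOX2. Rps27 (chr3:90213624-90213673, minus strand), its retrogene copy Rps27rt (chr9:114982715-114982764, minus strand) and its paralog Rps27l (chr9:66946061-66946110, plus strand, with no run within 15 bases), with Rpl22l1 (chr3:28805483-28805532, plus strand), show how copies differ from partners.
Rplp2: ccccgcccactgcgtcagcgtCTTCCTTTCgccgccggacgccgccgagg
Rps6: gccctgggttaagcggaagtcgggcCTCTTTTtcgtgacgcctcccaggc
Rpl38: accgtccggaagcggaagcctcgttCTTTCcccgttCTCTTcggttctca
Rpl35a: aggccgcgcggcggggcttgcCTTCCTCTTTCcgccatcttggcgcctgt
Rpl26: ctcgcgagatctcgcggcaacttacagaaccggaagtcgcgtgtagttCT
Rps27: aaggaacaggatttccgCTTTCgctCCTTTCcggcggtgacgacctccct
Rps27rt: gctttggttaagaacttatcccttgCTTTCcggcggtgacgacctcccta
Rps27l: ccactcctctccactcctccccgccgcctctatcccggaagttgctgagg
Rpl22l1: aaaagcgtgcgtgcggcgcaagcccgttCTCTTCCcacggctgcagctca

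RefSeq windows of 300 bases (250 before the start and 50 from it on) matched 67 of the 88 genes by symbol, in 79 windows. A pyrimidine run of the kinds listed above, on the gene strand and within 15 bases of the start, was present in 41.8% of their windows against 16.4% of all 32851 windows. The ETS core CCGGAAG, searched on both strands of the whole window, was present in 34.2% against 8.86%, the YY1 core AAGATGG in 15.2% against 6.34%, and the GC box GGGCGG in 58.2% against 35.7%. TATAAA was present in 10.1% against 13.6% and the E-box CACGTG in 10.1% against 7.15%. The core of the hypoxia response element, ACGTG or GCGTG, was present in 68.4% against 43.8%, and every CACGTG match is also a match to it. The windows were not matched for base composition, and whether any factor binds these matches was not tested. Rps27 and Rps27rt shared an identical stretch of 38 bases in these windows, whereas Rps27 and Rps27l shared at most 8, so the retrogene keeps the start of its parent mRNA and the paralog does not.

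The 88 genes gave between 4.51% and 7.16% of all counts in a library. In MC the shares were 5.53%, 5.81% and 7.16% (6.17% ± 0.872, SD, n = 3). In MI they were 4.64%, 5.81% and 4.51% (4.98% ± 0.720, n = 3). In HC they were 5.78%, 5.77% and 6.16% (5.90% ± 0.220, n = 3), and in HI 5.98%, 6.03% and 5.48% (5.83% ± 0.303, n = 3). MC3 was the highest library and MI1 and MI3 the lowest, MI2 lay at the level of MC2 and HC2, and the ranges of all 4 groups overlapped. In these bulk samples fewer cells rich in ribosomal protein mRNA and less of that mRNA per cell cannot be told apart.

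**Figure D1:**
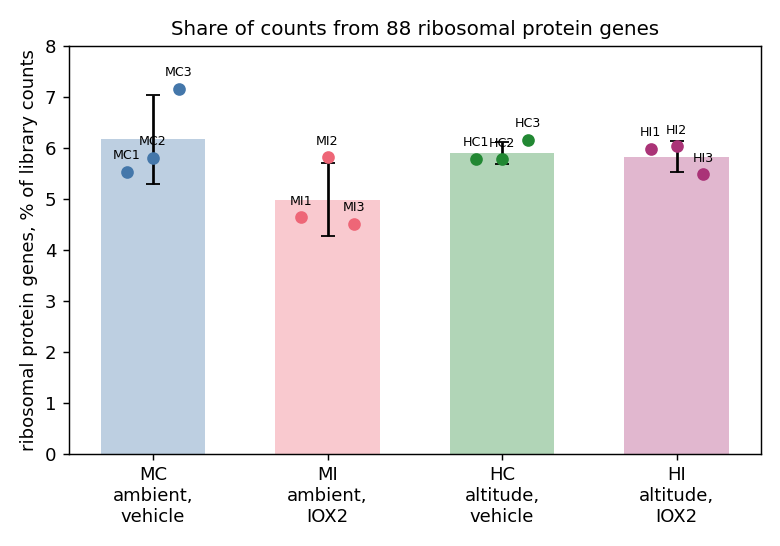
Share of each library's counts that came from the 88 ribosomal protein genes, in percent, by group (bars: mean, error bars: SD, points: the 3 libraries of each group). MC3 stands highest at 7.16% and MI1 and MI3 lowest at 4.64% and 4.51%, with MI2 at 5.81%.

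Depth and composition bear on every comparison. Library totals ran from 31661685 counts (HC1) to 40019343 (MI2), and TMM factors from 0.926 (MI3) to 1.03 (HC1). MI1 and MI3 stood apart from the other libraries. MI1 had a summed level of 712 CPM for 8 B-cell and plasma-cell genes, against 2.39 to 18.6 CPM elsewhere, and the highest sum of 12 skeletal muscle genes (516 CPM against 38.1 to 318). MI3 had 2.96% of its counts from mitochondrial mRNAs, against 1.61% to 2.14% elsewhere. The summed epithelial markers were lowest in the same pair of libraries, at 4735 and 4917 CPM. The medians of the 88 genes in comparisons that use MI, and the values of the main genes named in them, are therefore also given without that pair, which leaves MI2 as the single MI library and assumes that it varies like the other groups.

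The genes varied together across libraries. For each gene the deviation of its log2 CPM from its own mean over the 12 libraries was taken, and the median over the 88 genes was 0.34 in MC3, -0.33 in MI1 and -0.22 in MI3. The other 9 libraries had medians between -0.08 and 0.13. In MC3 87 of 88 genes lay above their own mean, against 1 of 88 in MI1 and 3 of 88 in MI3. In MI2 the count was 30 of 88, and in HI1, HI2 and HI3 it was 73, 78 and 2 of 88. As a description, 66 of the 88 genes correlated with the median of the other genes at r over 0.9 across the 12 libraries (median r 0.955), points that share library size, composition and RNA quality. The lowest correlations among genes of more than a few counts belonged to Rpl22l1 (0.28), Rps27l (0.34), Rpl21 (0.53) and Rps19bp1 (0.66). The ratio of small-subunit to large-subunit counts stayed between 0.703 and 0.727 in the 12 libraries, so the balance of the subunits varied little while their sum did.

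**Figure D2:**
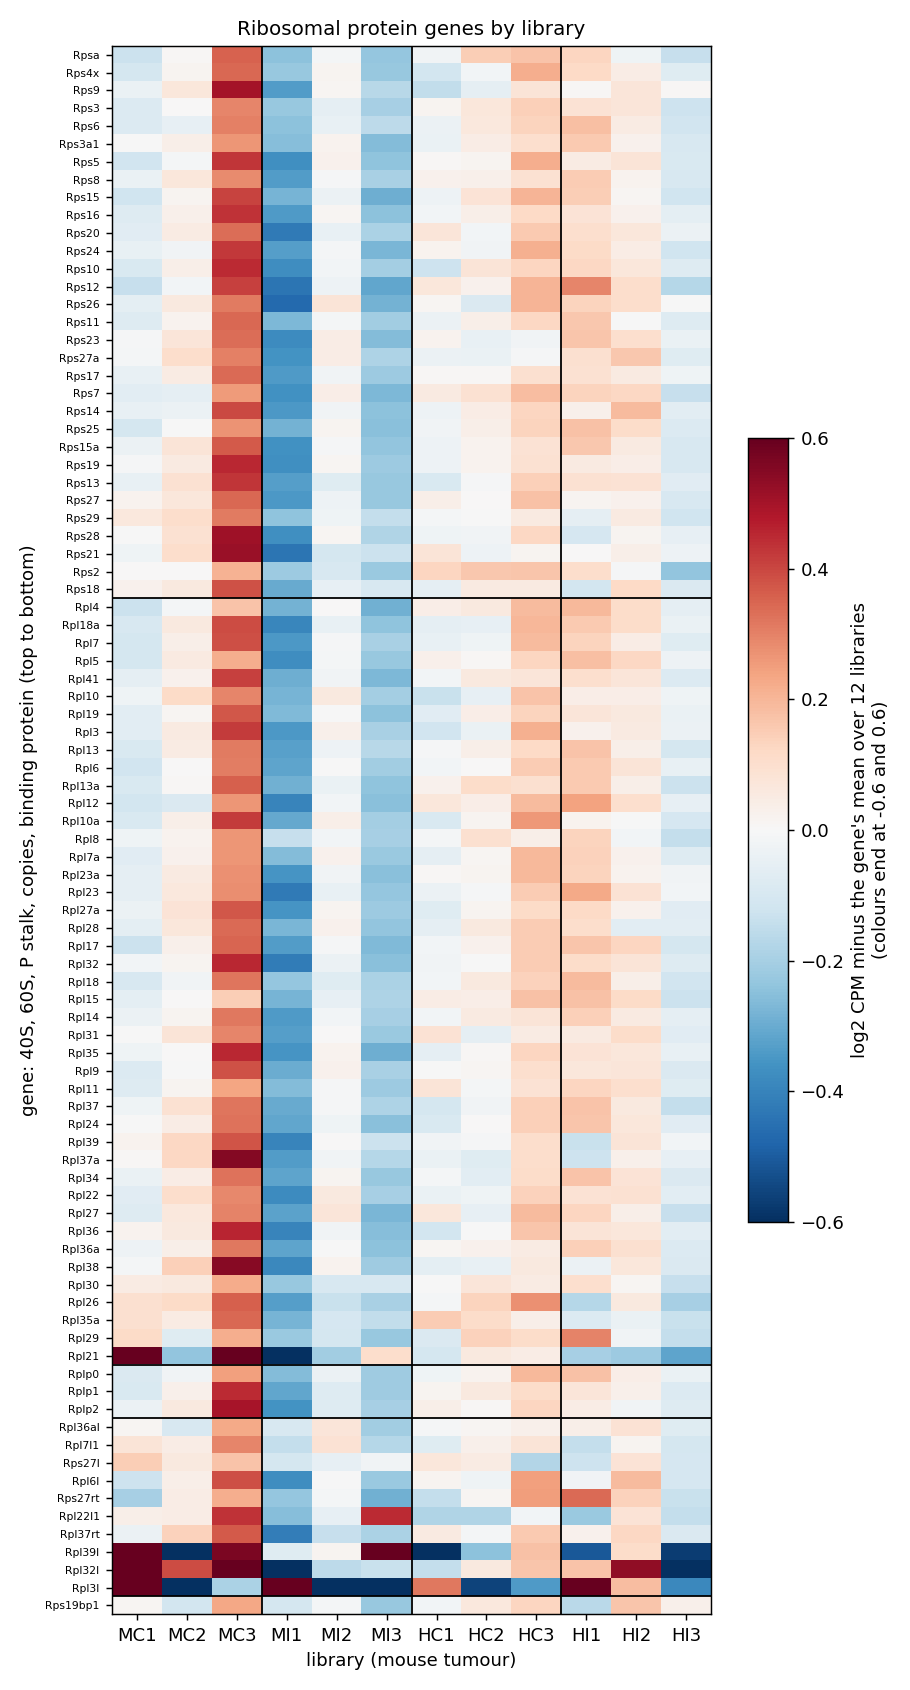
Log2 CPM of each of the 88 genes (rows, ordered as small subunit, large subunit, P stalk, copies and binding protein, separated by lines) minus the gene's own mean, in each library (columns, 3 per group). Nearly the whole column is red in MC3 (87 genes above their mean) and blue in MI1 and MI3 (1 and 3 genes above); Rpl22l1 in MI3 and the barely detected Rpl39l, Rpl32l and Rpl3l depart from their columns, and colours end at a deviation of 0.6.

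IOX2 at ambient altitude (MI against MC) gave fitted changes of 1 sign in all 88 genes, and no single gene passed the test. Of the 88 genes, 0 had a fitted log2 change above 0, against 50.8% of all genes tested, and the median change was -0.30, against 0.01 over all genes. None passed an adjusted p of 0.05 (edgeR's quasi-likelihood test with Benjamini-Hochberg adjustment over 15269 genes, smallest adjusted p 0.491), where 0.0262% of all genes did. At an unadjusted p under 0.05 there were 62 of the 88 genes, all lower, against 9.39% of all genes. In 19 genes the 3 MI libraries lay wholly below the 3 MC libraries, and in 0 wholly above, against 6.32% and 4.75% of all genes. DESeq2, limma-voom and limma on log2(FPKM + 1) likewise called 0 of the 88.

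By subunit, the median change in MI against MC was -0.32 over 31 small-subunit genes, -0.29 over 43 large-subunit genes and -0.34 over the 3 stalk genes. Rpl35a, a large-subunit protein whose loss causes Diamond-Blackfan anaemia, had the smallest p. Its level was 69.2, 66.8 and 82.2 CPM in MC and 53.3, 60.3 and 58.4 CPM in MI. All MI libraries lay below all MC libraries, with a log2 change of -0.34 (SE 0.089, unadjusted p = 0.00249, adjusted p = 0.491 in edgeR). Rpl26, which sits near the mouth of the peptide exit tunnel, had 73.1, 74.1 and 87.6 CPM in MC and 54.3, 62.3 and 59.8 CPM in MI, again without overlap (log2 change -0.41, SE 0.11). Rpl37rt, a retrogene copy of Rpl37, had 46.2, 52.0 and 61.1 CPM in MC and 35.5, 43.0 and 41.5 CPM in MI (log2 change -0.41, SE 0.11). Rps29, a small zinc-binding protein of the 40S head, had 313, 323 and 372 CPM in MC and 254, 294 and 271 CPM in MI (log2 change -0.30, SE 0.09). The groups of these genes did not overlap either, and the adjusted p of each was 0.491. Among the genes that departed most from the median change were Rpl21 (-0.78) and Rps21 (-0.44) below it, and Rpl22l1 (-0.10) and Rpl36al (-0.13) above it; with a gene length term in the fit the last pair stood at 0.12 and 0.07.

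The stalk proteins recruit the GTPases that drive translation. Rplp2 had 523, 558 and 755 CPM in MC, 418, 507 and 466 CPM in MI, 549, 539 and 586 CPM in HC, and 552, 528 and 508 CPM in HI. The 3 MI libraries lay below the libraries of each of the other groups. Its log2 change was -0.40 in MI against MC (SE 0.13, adjusted p = 0.491 in edgeR) and 0.19 in HI against MI (SE 0.13, adjusted p = 0.466). Rplp1 had fitted changes of -0.34 and 0.20 in the same comparisons, and Rplp0, which anchors the stalk, of -0.22 and 0.23, with overlapping groups. Rpsa, a 40S protein also known as the laminin receptor precursor, had fitted log2 changes of -0.25 and 0.15.

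Libraries and gene length moved with this pattern. Without MI1 and MI3 the median change of the 88 genes in MI against MC was -0.12, with 3 genes above 0 and 0 at an unadjusted p under 0.05. By subunit it was -0.12 (small), -0.11 (large) and -0.20 (stalk), and the changes of Rpl35a, Rpl26, Rpl37rt and Rps29 were -0.25, -0.31, -0.29 and -0.17. Rplp2 stood at -0.25, Rplp1 at -0.20, Rplp0 at -0.07 and Rpsa at -0.08 in that fit. The median of the 88 genes was -0.18 without MC3 and -0.21 without MI1. Ribosomal protein genes are short: their median length, as the authors' FPKM values imply it, was 825.5 bases, against 3554 bases for the other genes tested. Other genes under 500 bases (115 genes) had a median change of -0.20 in MI against MC, those of 500 to 1000 bases (712 genes) -0.14, and those of 4000 bases or more 0.07. MC3 had the highest deviation of the other genes under 500 bases (0.21), and MI1 and MI3 the lowest (-0.12 and -0.16). With a gene length term in the fit the median change of the 88 genes was -0.15, with 15 genes at an unadjusted p under 0.05. Epithelial markers had a median change of -0.20 (14 of 15 below 0) and fibroblast markers of 0.18 (10 of 10 above 0), with none called in either list. Without MI1 and MI3 the epithelial median was -0.04 (11 of 15 below 0). The fibroblast median turned to -0.13 in that fit, with 10 of 10 below 0. The summed fibroblast level was 6800 to 10069 CPM in MC and 7515 to 11178 CPM in MI. Red cell genes were called higher in MI, 4 of 6 tested, against 0.0262% of all genes. Their summed level was 19.8 to 21.1 CPM in MC and 87.6 to 123 CPM in MI. Without MI1 and MI3 the median change of the 6 red cell genes was 2.59, with 6 of 6 above 0. Beyond the values without those libraries and with the length term, the part of these measures in the result was not tested.

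**Figure D3:**
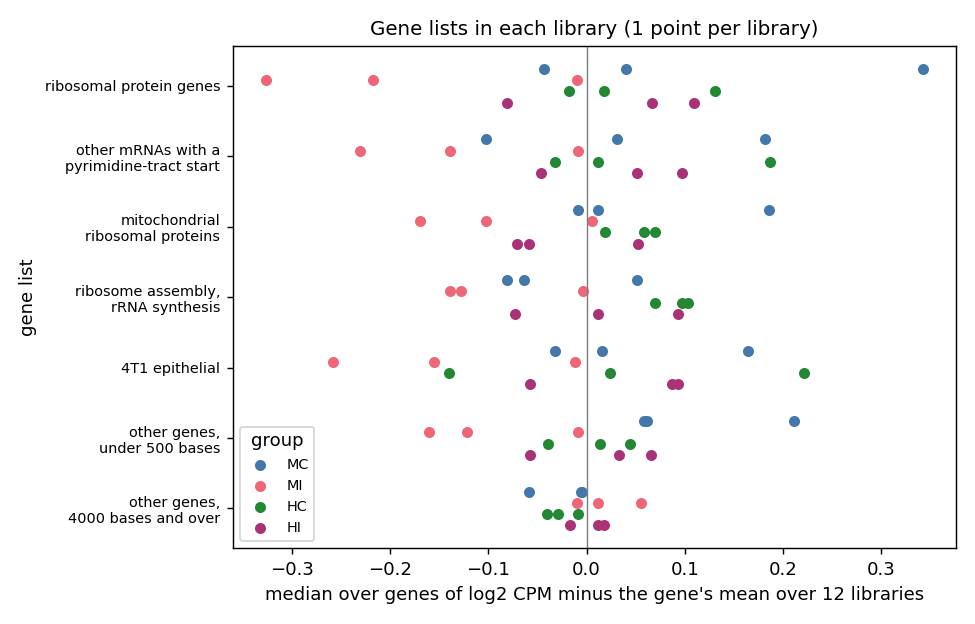
Median deviation of log2 CPM from each gene's mean, for 7 gene lists (rows), with 1 point per library coloured by group. The ribosomal protein genes span -0.33 (MI1) to 0.34 (MC3); short genes outside the family also have MC3 highest and MI1 and MI3 lowest, over a narrower range, and genes of 4000 bases or more lie near 0.

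For altitude under IOX2 (HI against MI), 84 of the 88 genes had a fitted change above 0, against 47.8% of all genes, with a median of 0.21 against -0.01. This comparison shares the MI libraries with the one above. None passed an adjusted p of 0.05 in edgeR, where 0% of all genes did, and 8 genes, all higher, had an unadjusted p under 0.05, against 15.2% of all genes. The HI libraries lay wholly above the MI libraries in 7 genes, against 8.02% of all genes, and wholly below them in 0, against 6.61%, so the genes apart were no more frequent than among all genes. The change was above 0 for 31 of 31 small-subunit genes and 42 of 43 large-subunit genes. Rpl23, a 60S protein that can bind MDM2, had 565, 736 and 647 CPM in MI and 887, 804 and 750 CPM in HI. The groups did not overlap (log2 change 0.33, SE 0.12, adjusted p = 0.269 in edgeR). Rpl5, which joins RPL11 and 5S rRNA in the particle that restrains MDM2, had 939, 1207 and 1037 CPM in MI and 1379, 1326 and 1188 CPM in HI, which overlap (0.29, SE 0.11, adjusted p = 0.279). Rpl12, at the base of the stalk, and Rpl4, which lines the exit tunnel, had changes of 0.31 and 0.27. Rpl22l1 (-0.17), Rpl21 (-0.03), Rpl7l1 (-0.00) and Rps27l (0.01) departed most from the median, and the sign of each of them changed under other settings or without single libraries. Without MI1 the median was 0.13, and without MI1 and MI3 it was 0.03, with 62 of 88 genes above 0 and 0 at an unadjusted p under 0.05. In the fit without the pair Rpl23 stood at 0.13, Rpl5 at 0.09, Rpl12 at 0.11, Rpl4 at 0.07 and Rplp2 at 0.05. Rplp1 stood at 0.07, Rplp0 at 0.08 and Rpsa at -0.01 in the same fit, so the sign of Rpsa turned. Epithelial markers had a median change of 0.15 (14 of 15 above 0) and fibroblast markers of -0.26 (10 of 10 below 0), with none called; without the pair these medians were 0.03 (8 of 15 above 0) and 0.09 (6 of 10 above 0). Other genes under 500 bases had a median change of 0.08 and those of 500 to 1000 bases of 0.05, and with the gene length term the median of the 88 genes was 0.15. Endothelial markers had a median change of -0.59 (11 of 12 below 0, none called; -0.41 without the pair), and their summed level was 302 to 336 CPM in HI and 398 to 544 CPM in MI. Beyond the values without the pair and with the length term, the part of these measures in the result was not tested.

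Altitude with vehicle (HC against MC) gave a median of -0.07, against -0.01 over all genes, with 9 of 88 genes above 0 where 47.8% of all genes were. None was called, as for all genes (0%), and 1 gene had an unadjusted p under 0.05, against 12% of all genes. Without MC3 the median was 0.05, so its sign rested on that library, and without MC1 it was -0.15. Rpl21, a large-subunit gene, had 25.03, 12.2 and 26.9 CPM in MC and 13.4, 15.004 and 14.9 CPM in HC, with MC2 as low as any HC library (log2 change -0.57, SE 0.25, adjusted p = 0.409 in edgeR). Rpl38, which in mouse embryos is needed for translation of Hox mRNAs, and Rpl37a had changes of -0.26 and -0.25. The HC and MC groups were apart in 3 genes, Rpl22l1, Rpl32l and Rps29, all lower in HC, against 11.4% of all genes. Fat cell markers had changes above 0 in 10 of 10 genes, with none called and a summed level of 52.2 to 92.2 CPM in MC and 80.3 to 697 CPM in HC; their part in the result was not tested.

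IOX2 at altitude (HI against HC) gave no call and a median near that of all genes. The median was -0.01, with 33 of 88 genes above 0 against 50.4% of all genes, and the median over all genes was 0.00. None had an unadjusted p under 0.05, against 4.85% of all genes, and none was called, as for all genes (0%); the smallest adjusted p was 0.964. The groups were apart in 3 genes, all lower in HI, against 5.61% of all genes, and in 0 genes higher in HI, against 5.74%. These were Rps2, a 40S protein at the mRNA entry channel, with 159, 162 and 163 CPM in HC and 156, 144 and 123 CPM in HI, Rpl35a with 71.8, 69.8 and 66.3 CPM in HC and 61.2, 62.9 and 59.0 CPM in HI, and Rpl21 with a log2 change of -0.24 (SE 0.26). Rpl26 overlapped, with a change of -0.24 (SE 0.11, adjusted p = 0.964).

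The interaction asks whether the altitude difference under IOX2 exceeded that under vehicle. Its fitted value was above 0 in all 88 genes, against 47.6% of all genes tested, with a median of 0.28 against -0.02, and no gene passed (0% of all genes; smallest adjusted p of the 88 genes 0.596 in edgeR). At an unadjusted p under 0.05 there were 8 genes, against 8.21% of all genes. Rps23, at the decoding centre, had 626, 662 and 794 CPM in MC, 484, 649 and 526 CPM in MI, 639, 610 and 620 CPM in HC, and 705, 674 and 611 CPM in HI, an interaction of 0.42 (SE 0.17, unadjusted p = 0.0306). Rps13 (0.40), Rpl23 (0.39) and Rps27a (0.39), which is made as a fusion to ubiquitin, followed. With the gene length term the median was 0.15, with 81 of 88 genes above 0 and 0 at an unadjusted p under 0.05, and without MI1 and MI3 it was 0.10 with 80 above 0 (Rps23 0.17, Rps13 0.24, Rpl23 0.19). Without MC3 it was 0.16.

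Averaged over altitude, IOX2 gave a median of -0.15 with 1 of 88 genes above 0, against 51.7% of all genes; 17 genes had an unadjusted p under 0.05, against 5.12% of all genes, and none was called, against 0.0393% of all genes. Without MC3 this median was -0.09, and without MI1 and MI3 it was -0.06, with 5 genes above 0 and 3 at an unadjusted p under 0.05. Rpl26 (-0.32, SE 0.077), Rpl35a (-0.26, SE 0.063), Rps2 (-0.22, SE 0.068) and Rps27 (-0.22, SE 0.076) had the smallest p, and the adjusted p of each was 0.759 in edgeR; without the pair their changes were -0.27, -0.22, -0.17 and -0.13. Averaged over treatment, altitude gave a median of 0.06 with 75 genes above 0, against 46.2% of all genes, and leaving out single libraries gave 0.02 (without MC1) to 0.13 (without MC3). When MI1 and MI3 were left out its sign turned, to a median of -0.02 with 30 of 88 genes above 0. Of the 88 only Rpl4 had an unadjusted p under 0.05 (log2 change 0.18, SE 0.079, adjusted p = 0.280 in edgeR), against 17.3% of all genes, and none was called, against 0.498% of all genes. Rpl12 (0.19), Rpl39l (-0.78) and Rpl15 (0.14) followed. With MI1 and MI3 left out Rpl4 stood at 0.08 and Rpl12 at 0.09.

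**Figure D4:**
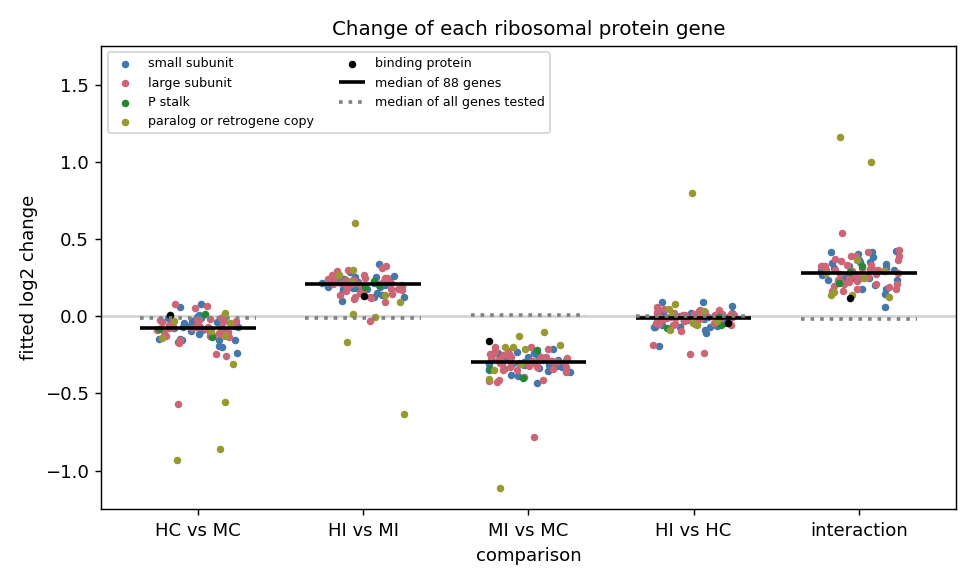
Fitted log2 change of each of the 88 genes (points, coloured by class) in 4 comparisons of 2 groups and in the altitude by IOX2 interaction, with the median of the 88 genes (black line) and of all genes tested (dotted line). The points of MI against MC lie below 0 around -0.30 and those of the interaction above 0 around 0.28; the far points are Rpl21 and the barely detected Rpl39l, Rpl32l and Rpl3l.

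Some ribosomal proteins also act in signalling. Rps6, the S6 kinase substrate, had 1109, 1136 and 1448 CPM in MC, 991, 1137 and 1054 CPM in MI, 1147, 1227 and 1287 CPM in HC, and 1330, 1215 and 1086 CPM in HI, and the MI and HI groups overlapped with their controls (log2 change -0.21, SE 0.12, in MI against MC). Rpl11, partner of RPL5 in the 5S particle, had fitted changes of -0.22 (SE 0.10) in MI against MC and 0.21 (SE 0.10) in HI against MI. With MI1 and MI3 left out the MI against MC changes of Rps6 and Rpl11 were -0.10 and -0.05. The HI against MI change of Rpl11 was 0.05 in that fit. The 5S particle can set off a p53 response through MDM2, but whether p53 works in the tumour cells was not tested. A lack of calls among p53 response genes therefore cannot show what the 5S particle did in those cells. None of 12 genes of the p53 response was called in any of the 7 comparisons. Pmaip1, a p53 target that promotes cell death, had the smallest p among them, with a log2 change of 0.71 (SE 0.18, adjusted p = 0.491 in edgeR) in MI against MC and of -0.96 (SE 0.19, adjusted p = 0.122) in HI against MI, and of 0.32 and -0.56 without MI1 and MI3.

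Per unit length, on the authors' FPKM scale, the levels of the 77 genes of both subunits and the stalk had a median of 758 FPKM and quartiles of 482 and 1209 FPKM. The highest were Rplp1 (2231 to 3777 FPKM over the 12 libraries), Rpl41, the shortest ribosomal protein (1992 to 3418 FPKM), and Rps9 (1380 to 2409 FPKM). Rplp1 and Rpl41 overlapped across libraries, and MC3 was highest for all of them. At the low end, 6 of the 77 lay under 0.2 of the median, namely Rpl21 (7.30 FPKM), Rpl29 (30.5), Rps15a (98.5), Rpl35a (109), Rpl26 (127) and Rps2 (146). Rps15a has a length of 5136 bases in the table, the longest of the 88. Stretches of 100 bases of their GENCODE M21 transcripts were also found in transcripts of other genes for 16.7% of stretches of Rpl21, 50.1% of Rpl29, 58.5% of Rps2, 36.8% of Rpl26 and 34.2% of Rpl35a. Of 85 genes with such a transcript, 38 shared at least 50% of stretches (median level 573 CPM) and 47 fewer (median 664 CPM). How reads that fit several places were counted is not stated in what was available here. The absolute levels of genes that share stretches with other genes are therefore uncertain. Among them are Rps2 and Rpl29, with at least 50% shared, and Rpl21 and Rpl26, with less.

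On the FPKM scale the copies took unequal shares of their pairs. As a percentage of the summed FPKM of copy and partner, Rpl22l1 ranged from 35.2% to 51.3% over libraries (median 39.0%), Rpl36al from 25.9% to 30.9%, Rps27rt from 12.2% to 16.9%, Rpl37rt from 8.46% to 10.2% and Rpl6l from 8.08% to 9.70%. Rpl7l1 ranged from 2.42% to 3.33% beside Rpl7, and Rps27l, a p53 target, from 1.83% to 2.74% beside Rps27. These shares rest on the gene lengths that the FPKM values imply, which for some genes far exceed the GENCODE M21 transcript. Rps27l has 2748 bases against 499, and Rpl22 has 2208 against 474. In CPM, which take no account of length, Rps27l (mean 62.9) lay near Rps27rt (58.9), beside 334 for Rps27. Rpl22l1 had a mean of 57.4 CPM beside 385 for Rpl22. Rpl22l1, which RPL22 is known to repress in mouse cells, did not follow the other genes. It had 58.0, 58.4 and 76.6 CPM in MC, 47.5, 54.8 and 77.4 CPM in MI, 49.98, 49.96 and 56.1 CPM in HC, and 48.5, 60.03 and 51.3 CPM in HI, while Rpl22 had 467 CPM in MC3 and 334 CPM in MI3. The CPM of Rpl22l1 in MI3 was the highest of the 12 libraries, just above MC3, although most of the 88 genes were low in MI3. On the FPKM scale MC3 was higher than MI3 (156 against 147). Rps27l had 69.5, 65.4 and 70.7 CPM in MC and 58.4, 60.6 and 61.7 CPM in MI, without overlap (log2 change -0.19, SE 0.09, adjusted p = 0.491 in edgeR; -0.16 without MI1 and MI3). Rps27rt shares the start of Rps27, as printed above, and how reads split between the pair is uncertain.

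**Figure D5:**
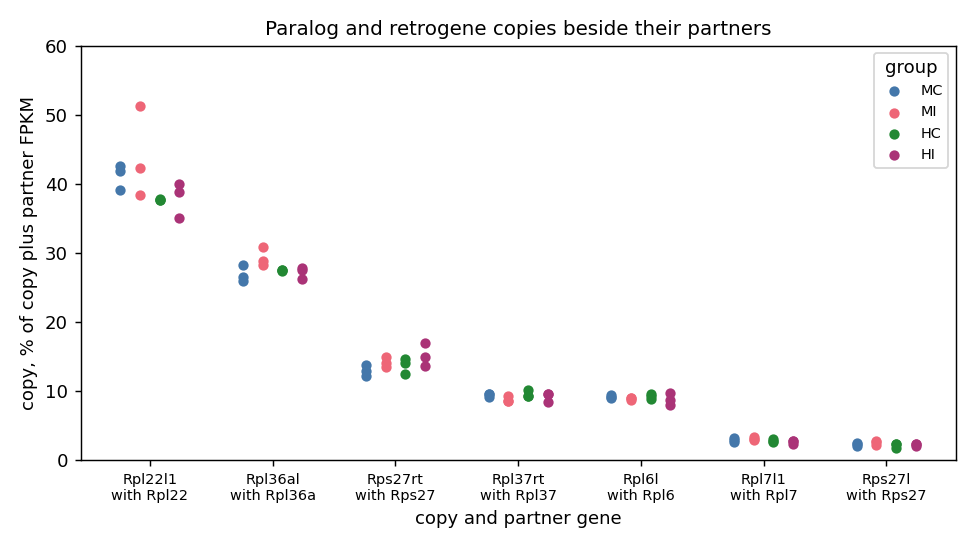
FPKM of 7 copies as a percentage of the FPKM of copy plus partner, with 1 point per library coloured by group. Rpl22l1 ranges from 35.2% to 51.3%, with MI3 the highest point, and the other copies keep narrower ranges. The shares rest on the gene lengths that the FPKM values imply.

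Rpl3l, a striated muscle paralog, Rpl39l, a testis paralog, and Rpl32l were barely detected, with mean levels of 0.155, 0.556 and 0.747 FPKM. Rpl3l was highest in MC1 and MI1 (0.755 and 0.737 CPM against 0.0243 to 0.574 CPM elsewhere), and MI1 also had the highest skeletal muscle sum; the part of muscle in this level was not tested. The lowest Rpl3l level is below the 3-count floor of 0.0728 to 0.0917 CPM per library. Rps19bp1, the binding protein, had 13.5 to 18.5 CPM in the 12 libraries and log2 changes of -0.16 (SE 0.12) in MI against MC and 0.13 (SE 0.12) in HI against MI, which were -0.05 and 0.02 without MI1 and MI3.

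Rack1 and Fau, which belong to the ribosome but not to the name pattern, were examined beside them. Rack1, a signalling scaffold on the 40S head, had a log2 change of -0.32 (SE 0.12) in MI against MC and 0.21 in HI against MI. Fau, made as a fusion of a ubiquitin-like protein with a 40S protein, had -0.33 and 0.30. Leaving out MI1 and MI3 gave -0.13 and 0.02 for Rack1 and -0.13 and 0.11 for Fau. Neither was called, and the adjusted p of each was 0.491 in edgeR in MI against MC. Among 21 other mRNAs known for a TOP start, which include elongation factors and subunits of initiation factor eIF3, 4 had a change above 0 in MI against MC (median -0.17) and 16 in HI against MI (median 0.14). Eef1b2 (-0.31), Eif3k (-0.28) and Eef1g (-0.28) had the smallest p in MI against MC, and Eef2 (0.35), Eif3e (0.31) and Pabpc1 (0.24) in HI against MI. In the fit without MI1 and MI3 the medians of the 21 were -0.04 and 0.06, with 8 and 14 above 0. Eef1b2, Eif3k and Eef1g stood at -0.13, -0.13 and -0.14 in MI against MC in that fit. Eef2, Eif3e and Pabpc1 stood at 0.19, 0.13 and 0.12 in HI against MI. None of the 21 was called in any of the 7 comparisons.

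Genes of the mitochondrial ribosome, which makes proteins of the respiratory chain, and of the factors that build cytosolic ribosomes were examined beside the 88 genes; differences between the lists were not tested. Of 78 mitochondrial ribosomal protein genes, 73 had a change below 0 in MI against MC (median -0.14), and 54 were above 0 in HI against MI (median 0.06). The MI libraries lay wholly below the MC libraries in 18 of the 78, against 6.32% of all genes, and for IOX2 averaged over altitude 76 of the 78 were below 0 (median -0.11). When MI1 and MI3 were left out, 50 of 78 were below 0 in MI against MC (median -0.03) and 25 above 0 in HI against MI (median -0.05). For IOX2 averaged over altitude 64 of the 78 were then below 0 (median -0.06). The HI libraries lay wholly below the HC libraries in 16 of the 78, against 5.61% of all genes, with a median change of -0.08. Mrps6 had the smallest adjusted p, at altitude averaged over treatment (log2 change 0.42, SE 0.08, adjusted p = 0.0575 in edgeR; 0.32 and 0.311 without MI1 and MI3). Of 45 genes of ribosome assembly and rRNA synthesis, 38 had a change above 0 in HC against MC (median 0.11), where the median of the ribosomal protein genes was -0.07. The HC libraries lay wholly above the MC libraries in 18 of the 45, against 10.3% of all genes, and 43 of 45 were above 0 at altitude averaged over treatment (median 0.10; 35 of 45 and 0.07 without MI1 and MI3). In MI against MC 33 of the 45 were below 0 (median -0.05), and without MI1 and MI3 13 were (median 0.05). In HI against MI 38 of the 45 were above 0 (median 0.09), and without that pair 24 (median 0.01). Nop2, an rRNA methyltransferase, Rrp12, a processing factor, and Nolc1, a nucleolar chaperone of small nucleolar particles, had changes of 0.27, 0.32 and 0.25 in HC against MC, with adjusted p of 0.231, 0.249 and 0.249 in edgeR. Another list held 21 genes for the control of ribosomal protein mRNAs, among them Mtor, Larp1 and transcription factors such as Myc. Of these Mtor had the smallest adjusted p, at altitude averaged over treatment (log2 change 0.27, SE 0.06, adjusted p = 0.0695 in edgeR, and 0.24 without MI1 and MI3). Larp1 (0.18, SE 0.06) and Myc (0.22, SE 0.09) followed, and stood at 0.14 and 0.11 without that pair. None of the genes of these lists was called in any of the 7 comparisons.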

How the data were processed

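The deposited table holds raw whole-number counts per gene for 12 libraries, and a second table holds the authors' FPKM values. The submitters' processing notes list, without roles, GRCm39 as the build and R 3.5.1, DESeq2 1.22.2, HTSeq 0.11.2, HISAT2 2.1.0 and fastp 0.20.1 as tools. Annotation, strandedness and the counting of multiply mapped reads were not given in the sources used here. Counts were fitted with edgeR 4.0.16 in R 4.3.3 (TMM, filterByExpr, quasi-likelihood, 12 libraries, 1 mean per group), and p-values were adjusted by Benjamini-Hochberg over 15269 genes. SE is the size of the log2 change divided by the square root of F. An exact test of 3 against 3 cannot go below p = 0.1, and the floor of 3 counts covers counting error only. The 88 genes, the lists and the tests were chosen with earlier results of these data known.

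Genes were named by rule: the 4 with the smallest p in each of 7 comparisons, the 3 highest and 3 lowest by FPKM, the 4 that depart most from the median change in each comparison of 2 groups (mean of at least 5 CPM), the stalk genes, Rpsa, Rps6, Rpl5, Rpl11, Rps27a, the copies, Rps19bp1, and up to 3 genes with the smallest p of each other list. Same-numbered libraries had positive correlations of their deviations in HC and MC (0.278, 0.153 and 0.209) and in HI and MI (0.257, 0.0717 and 0.131). They did not in every pair of MI and MC or of HI and HC. The main fit took the libraries as independent and paired none of them. The labels do not say what the numbers mark. The symbols Ighm, Igkc, Trac and Trbc2 matched no row and were not analysed here. Alternatives were DESeq2 1.42.0, limma 3.58.1 (voom, and log2(FPKM + 1)), other scalings and filters, a gene length offset (loess, span 0.4), the replicate block, a fit on 2 groups, leaving out each library and, chosen after seeing the data, leaving out MI1 and MI3 together.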

Additional observations from a re-analysis of the deposited data

How the results depend on the processing

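None of the 88 genes was called in any of the 7 comparisons under any setting run. With the replicate number as a block, 0 of the 88 genes were called and the median change in HC against MC was -0.07 and in MI against MC -0.30. The median in MI against MC was -0.153 with the replicate block and the gene length offset together, and it kept its sign under every setting run. Without MI1 and MI3, an alternative chosen after seeing the data, the medians were 0.0285 in HI against MI, -0.117 in MI against MC and 0.0995 in the interaction, and that of altitude averaged over treatment turned to -0.0241. Leaving out each library in turn gave medians of -0.395 to -0.175 in MI against MC, 0.125 to 0.294 in HI against MI, 0.157 to 0.372 in the interaction, -0.200 to -0.0932 for IOX2 averaged over altitude and 0.0243 to 0.128 for altitude averaged over treatment. In HC against MC the range was -0.153 to 0.0464, above 0 only without MC3, and in HI against HC -0.0483 to 0.0434, above 0 without HC3 or HI3. Single genes near 0 changed sign in HI against MI: Rps27l at -0.000403 with DESeq2, -0.000605 with DESeq2 size factors and -0.00614 without MI1 and MI3, Rpl21 at 0.00626 with limma-voom and 0.0116 with limma on log2(FPKM + 1), and Rpl7l1 at 0.0177 with limma on log2(FPKM + 1) and 0.0113 with library totals only. Leaving out single libraries there gave -0.0517 to 0.0536 for Rps27l, -0.217 to 0.153 for Rpl21, -0.0563 to 0.0834 for Rpl7l1 and -0.327 to 0.0546 for Rpl22l1. In MI against MC, Rpl22l1 was at 0.121 with the gene length offset, 0.0992 with the block added, and -0.326 to 0.0562 without single libraries, and Rpl36al was at 0.0746, 0.0749 with the block added and 0.0378 without MI1 and MI3. The cause was not tested. Over all genes, DESeq2 called 314, 381, 20 and 19 genes in HC against MC, HI against MI, MI against MC and HI against HC, against 0, 0, 4 and 0 with edgeR, and 866, 11 and 29 for altitude, IOX2 and the interaction against 76, 6 and 0.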
